A study of Mus musculus with 17 samples.

Results

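Collagen receptors are the cell surface proteins through which a cell binds the collagen around it, and their transcripts were examined here in the distant, non-ablated tumors of mice. The 7 genes are the alpha chains Itga1, Itga2, Itga10 and Itga11, their shared partner Itgb1, and the receptor tyrosine kinases Ddr1 and Ddr2, out of 21931 genes in the table. They were taken by gene symbol, and the family was chosen by the contrast of Cryo with Con tumors, in which Itga11 was among the lowered genes with the smallest p. The comparison of Itga11 between the groups is therefore given as a description, with no test.

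MC38, a mouse colon cancer cell line, was injected beneath the skin of both flanks of wild-type C57BL/6J mice aged 6 to 8 weeks. In the Cryo group 1 tumor was frozen through a cryoprobe on day 7, and the tumor of the other side, which was not frozen, was taken 5 days after the freezing. The control group (Con) had no cryoablation and carries the same day in its labels. Bulk RNA sequencing covered 9 Con and 8 Cryo tumors by the deposited labels, which every direction given here rests on. The text of the study gives the sizes of these groups the other way round. Since the sources do not say that each tumor came from its own mouse, the p-values measure only the spread between these samples.

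The 4 alpha chains each pair with the beta1 chain Itgb1 and carry an inserted domain that grips a motif of the collagen triple helix. Integrin alpha1beta1 and alpha10beta1 are known for binding network-forming collagens such as collagen IV and collagen VI, while alpha2beta1 and alpha11beta1 favor the fibrillar collagens. Ddr1 and Ddr2 bind collagen without integrins and signal through their own kinase domain, Ddr1 mostly in epithelial cells and Ddr2 mostly in mesenchymal cells. Itga11 is known as a receptor of activated fibroblasts in tumors, and bulk RNA cannot tell fewer cells of a type from less RNA per cell.

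The promoters of Itga11 and Itga1 are shown because the results turn on Itga11, and Itga1 is the member whose level followed it most closely within the groups. The 250 bases before the start site come from RefSeq (GRCm38.p6), 5′ to 3′ on the strand of the gene. The Itga11 window is chr9:62677605-62677854 on the plus strand and the Itga1 window is chr13:115101965-115102214 on the minus strand. Capitals mark a match to any of 4 searched motifs.

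Itga11: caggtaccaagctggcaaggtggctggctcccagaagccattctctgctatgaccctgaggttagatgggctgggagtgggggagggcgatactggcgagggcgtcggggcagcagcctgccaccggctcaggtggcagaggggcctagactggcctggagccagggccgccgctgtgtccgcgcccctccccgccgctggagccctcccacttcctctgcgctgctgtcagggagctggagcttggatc

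Itga1: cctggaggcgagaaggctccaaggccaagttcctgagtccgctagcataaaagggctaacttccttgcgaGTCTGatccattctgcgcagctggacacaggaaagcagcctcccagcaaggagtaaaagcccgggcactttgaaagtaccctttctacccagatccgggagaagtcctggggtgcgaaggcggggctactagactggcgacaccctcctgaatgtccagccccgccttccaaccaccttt

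The motifs were searched on both strands. They were the GC box GGGCGG, the CCAAT box CCAAT, the TATA box TATAAA and the Smad element CAGAC, which are found in 32.7%, 33.8%, 12.4% and 42.2% of all 32851 promoter windows, each searched over the same 250 bases before the start site. The Itga11 window held none of these letters, and the Itga1 window held 1 Smad element, read as GTCTG on the strand shown. The windows differed in base composition, with a GC content of 68.4% for Itga11 and 57.6% for Itga1 against a median of 52.4% over all windows. Among the other members, the Itga2 window held 3 Smad elements, the Itgb1 window 3 Smad elements and 1 GC box, the Ddr2 window 1 TATA box with a GC content of 37.6%, and the Itga10 window none. Ddr1 had 4 start sites with 3, 1, 0 and 1 GC boxes, and 1 of these windows held 2 Smad elements. All 7 members had a window.

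The tumors had between 13524899 and 17898672 counts, so that 3 counts corresponded to 0.168 to 0.222 CPM (counts scaled to a common library total). The CPM given for genes were also TMM-normalized. Cryo replicates 2, 4 and 5 stood apart on the first principal component, which held 64% of the variance of the most variable genes. They lay at -25.5, -31.5 and -31.3, while the Con tumors lay between -9.52 and 15.5. Results that rest on them are given with and without them. Markers of colon epithelium ranged from absent to abundant. Cdx2, a transcription factor that defines intestinal cells, had 0 counts in every tumor and Vil1, a protein of the brush border, had 0 to 11 counts. Epcam and Cdh1, epithelial adhesion molecules, had 8 to 127 and 55 to 427 counts, and the keratins Krt8 and Krt19 had 0 to 609 and 6 to 949.

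Per kilobase of gene length the receptors covered a wide range, and Itgb1 was by far the most abundant. In TMM-scaled FPKM over all 17 tumors, Itgb1 had 214 ± 28.2 (SD), Ddr2 25.4 ± 6.26 and Ddr1 11.7 ± 1.85. The alpha chains were all far lower, with 1.53 ± 0.289 for Itga10, 0.731 ± 0.251 for Itga1, 0.449 ± 0.307 for Itga11 and 0.225 ± 0.148 for Itga2. Each gene was higher than the next in this order in 17 of 17 tumors from Itgb1 down to Itga1. Itga1 was above Itga11 in 16 tumors and Itga11 was above Itga2 in 14.

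From Itgb1 down to Itga1 the mean paired difference between neighbors was tested against 0 by a two-sided exact sign-flip permutation test of log2(FPKM + 0.05). The order was taken from the same tumors, so its direction was not set beforehand. Itga10 was above Itga1 by 1.06 ± 0.57 on this log2 scale (SD, n = 17), and each of these 4 steps had an exact p of 1.53e-05, the smallest possible. The step from Itga10 to Itga1 rested on the listed lengths, and in CPM without division by length it turned to -0.72. The steps to and from Itga11 are given with no test, since they hold the values that chose it. Itga1 was above Itga11 by a mean of 0.47 in Con and 1.24 in Cryo tumors, and Itga11 was above Itga2 by 1.04 in Con and 0.58 in Cryo.

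**Figure D1:**
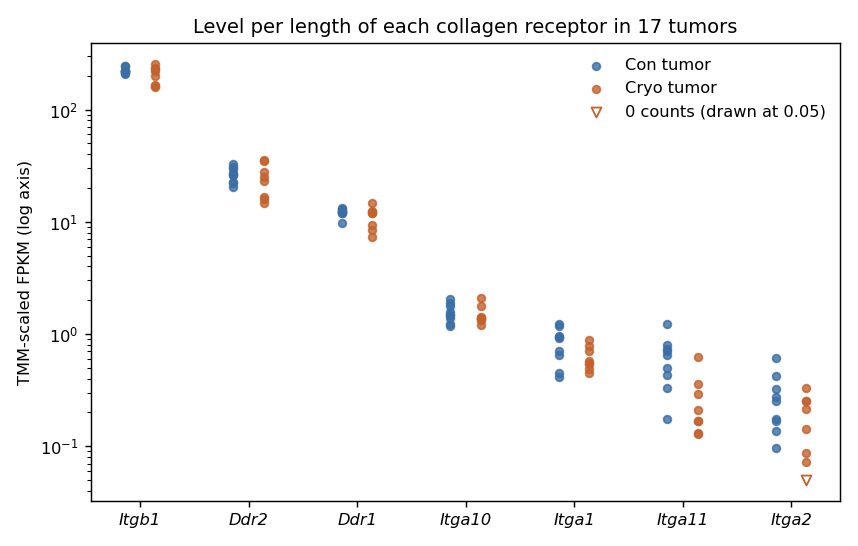
TMM-scaled FPKM of each collagen receptor on a log axis, with 1 point per tumor and the genes ordered by their mean. Itgb1 lies above Ddr2, Ddr1 and the 4 alpha chains in every tumor, and the triangle marks the Cryo tumor with 0 counts of Itga2.

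The collagen-binding alpha chains were a small part of the partners of Itgb1. Among 12 alpha chains that can pair with it, Itga5, the main fibronectin receptor chain, held 44.7 ± 2.74% of the length-scaled total in Con and 46.8 ± 4.43% in Cryo tumors. Itga3, a laminin receptor chain, held 30.3 ± 3.12% and 30.2 ± 2.05%. The 4 collagen-binding chains together held 3.69 ± 0.784% in Con and 2.87 ± 0.374% in Cryo (SD, n = 9 and 8, no test), and their summed level came to 1.48 ± 0.380% and 1.27 ± 0.231% of that of Itgb1. Within these 4, Itga10 had the largest mean share per length in both groups, 49.2 ± 12.4% in Con and 59.3 ± 10.6% in Cryo, and Itga11 had 18.1 ± 6.20% and 9.83 ± 5.22%. The place of Itga10 rests on a listed length of 5186 bases against 18599 for Itga1. In CPM, without division by length, Itga1 was higher, with 15.4 against 8.11 in Con and 11.6 against 7.72 in Cryo.

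Itga11 (ENSMUSG00000032243, chromosome 9, plus strand, 62585108 to 62691264 in the authors' table, whose build is not named here) was low in all tumors and lower in the Cryo group. In the Con tumors it had 0.896 CPM in the lowest tumor, a median of 3.35 and 6.35 in the highest. In the Cryo tumors it had 0.656, 0.973 and 3.22 CPM. All 8 Cryo tumors lay below the Con median and 4 lay below every Con tumor, yet the groups overlapped, since Con replicates 1 and 5 had only 0.896 and 1.69 CPM and Cryo replicate 3 reached 3.22. These are few reads: 12 to 116 counts per Con tumor and 7 to 59 per Cryo tumor.

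Itga11 had 3.17 ± 1.59 CPM in Con and 1.33 ± 0.864 in Cryo (SD, n = 9 and 8), a ratio of 0.427. On the log2 scale the fitted fold change was -1.23 with a standard error of 0.37. Its spread between tumors was wide, with a coefficient of variation of 50.1% in Con and 64.8% in Cryo, of which counting alone would give 13.5% and 21.7%. The contrast that chose it called 18 genes lower, with a log2 fold change beyond 1 in size together with an unadjusted p below 0.05, and Itga11 ranked 3 by p among those averaging 10 counts or more. Just before it came Hs6st2 with -1.42 (standard error 0.41) and just after it Npas2 with -1.21 (0.38). Such a call was made for 64 of 13005 genes tested, 0.492% of them, and for 18 genes, 0.138%, in the lower direction.

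Itga11 was also below the Con median in the Cryo tumors that did not stand apart. Cryo replicates 2, 4 and 5 had 0.675 to 0.861 CPM of Itga11 and the other 5 Cryo tumors 0.656 to 3.22, all 5 of them below the Con median. Without the 3 tumors the log2 fold change was -0.94 with a standard error of 0.42, which no longer exceeds 1 in size. It ranged from -1.56 without Cryo replicate 3 to -1.04 without Con replicate 7 when single tumors were left out. These values come from the contrast that chose the gene and describe it only.

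**Figure D2:**
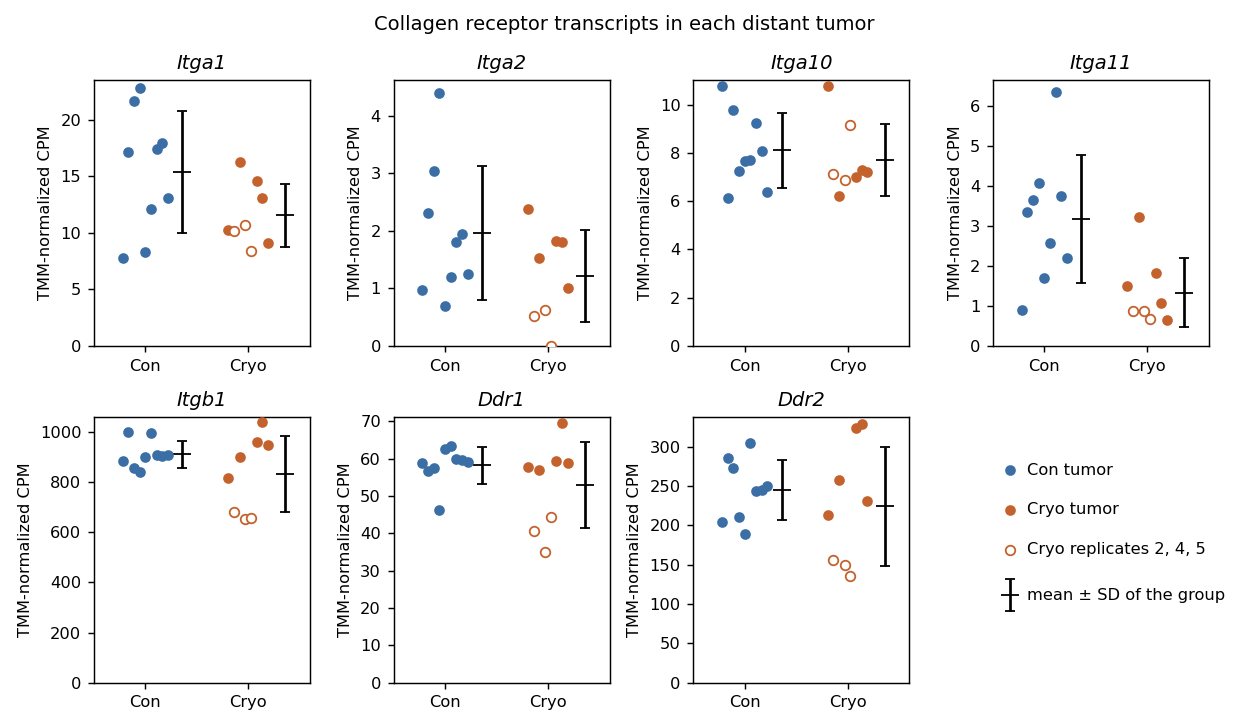
TMM-normalized CPM of the 7 receptors in each tumor, with Con in blue, Cryo in orange and Cryo replicates 2, 4 and 5 as open circles; bars give the mean ± SD of the group. For Itga11 all 8 Cryo tumors lie below the Con median of 3.35 CPM, while the open circles of Itgb1, Ddr1, Ddr2 and Itga2 lie below all other tumors.

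None of the other 6 members passed the same threshold or an unadjusted p under 0.05, against 0.492% and 4.91% of all genes tested. For Itga1 this depended on the fit, since its unadjusted p was 0.00829 under limma voom, and 0.0205, 0.0255 and 0.0343 in edgeR without Con replicate 1, Con replicate 5 or Cryo replicate 3. Other edgeR fits gave a higher p, 0.258 without Cryo replicates 2, 4 and 5, 0.113 with an offset for gene length and 0.146 with the fibroblast score as a covariate. All 6 had a log2 fold change below 0, as did 52.0% of all genes, and the median over the 7 members was -0.14 against -0.01 over all genes. No gene of the table had an adjusted p under 0.05 in edgeR's quasi-likelihood test with Benjamini-Hochberg adjustment, where 639 had an unadjusted p under 0.05. DESeq2 and limma voom also gave 0 such genes, with 881 and 1312 at an unadjusted p under 0.05.

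Itga1 (ENSMUSG00000042284, chromosome 13, minus strand, 115089632 to 115238500), a receptor chain of smooth muscle, stromal and memory T cells, had the smallest p of the other members. It ran from 7.77 CPM through a median of 17.2 to 22.8 in Con and from 8.39 through 10.5 to 16.3 in Cryo tumors. All 8 Cryo tumors were below the Con median and 5 Con tumors were above every Cryo tumor, but the 2 lowest Con values, again of replicates 1 and 5, lay below every Cryo tumor. The log2 fold change was -0.41 with a standard error of 0.21, or -0.53 (0.18) under limma voom (adjusted p = 0.466), and the difference was within the spread by edgeR's quasi-likelihood test (p = 0.0687, Benjamini-Hochberg adjusted p = 0.728) and by the two-sided exact permutation test (p = 0.139). The 95% interval of the log2 fold change, -0.83 to 0.01, leaves room for a fall of the gene as well as for none. Without Cryo replicates 2, 4 and 5 the log2 fold change of Itga1 was -0.29 (0.25).

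Itga2 (ENSMUSG00000015533, chromosome 13, minus strand, 114969617 to 115068636), the chain of the platelet and epithelial collagen receptor, was the rarest member. It had 0.69 to 4.40 CPM in Con tumors with a median of 1.81, and 0 to 2.37 with a median of 1.27 in Cryo tumors. Its Cryo values split in the same way as the principal component: replicates 2, 4 and 5 had 0 to 0.625 CPM, below all 14 other tumors, and the other 5 Cryo tumors had 1.01 to 2.37. Cryo replicate 5 had 0 counts, where 3 counts would be 0.289 TMM-normalized CPM, so a level below that cannot be told from absence. The log2 fold change of -0.67 (standard error 0.46) was within the spread (adjusted p = 0.734 by edgeR, exact permutation p = 0.126), with a 95% interval of -1.58 to 0.25, and it was -0.21 (0.38) without the 3 tumors.

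Itga10 (ENSMUSG00000090210, chromosome 3, plus strand, 96552900 to 96571835), a chain best known from cartilage, was the steadiest of the 4 alpha chains. It had 8.11 ± 1.55 CPM in Con and 7.72 ± 1.52 in Cryo tumors (SD, n = 9 and 8), with a range of 6.13 to 10.8 in Con and 6.22 to 10.8 in Cryo. The groups overlapped over nearly their whole range. Its log2 fold change was -0.07 with a standard error of 0.14 and a 95% interval of -0.35 to 0.21 (edgeR adjusted p = 0.851, exact permutation p = 0.595).

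Itgb1 (ENSMUSG00000025809, chromosome 8, plus strand, 129412135 to 129459681), the shared beta1 chain, was tightly held in Con tumors and split in Cryo tumors. It had 841 to 1000 CPM in Con with a median of 903, a coefficient of variation of 6.03%. In Cryo tumors it had 654 to 1040 with a median of 857. Replicates 2, 4 and 5 had 654 to 679 CPM, below all other tumors, and the other 5 Cryo tumors had 815 to 1040. Between the groups Itgb1 changed by -0.13 on the log2 scale with a standard error of 0.10 (adjusted p = 0.737 by edgeR, exact permutation p = 0.132), and without the 3 tumors it was 0.02 (0.07).

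Ddr1 and Ddr2 showed the same split. Ddr1 (ENSMUSG00000003534, chromosome 17, minus strand, 35992459 to 36015513) had 46.2 to 63.3 CPM in Con with a median of 59.2, and 35.1 to 69.5 with a median of 57.4 in Cryo. Replicates 2, 4 and 5 held the lowest values, 35.1 to 44.5, below the 46.2 to 69.5 of the other 14 tumors. Ddr2 (ENSMUSG00000026674, chromosome 1, minus strand, 169799876 to 169938331) had 189 to 304 CPM in Con with a median of 245, and 135 to 328 with a median of 222 in Cryo, of which the 3 tumors held 135 to 156.

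Neither kinase differed between the groups beyond the spread. On the log2 scale the difference was -0.14 for Ddr1 (standard error 0.12) and -0.13 for Ddr2 (0.17), with edgeR adjusted p values of 0.746 and 0.804 and exact permutation p values of 0.193 and 0.330. Without Cryo replicates 2, 4 and 5 the direction turned, to 0.05 (0.08) for Ddr1 and 0.14 (0.13) for Ddr2. The 95% intervals over all tumors were -0.37 to 0.09 and -0.47 to 0.21.

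**Figure D3:**
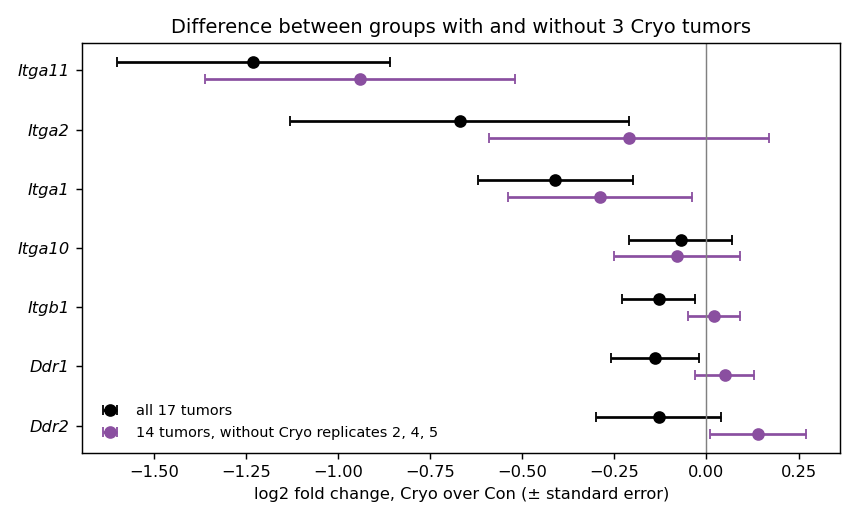
Log2 fold change (Cryo over Con, ± standard error) of each receptor over all 17 tumors in black and without Cryo replicates 2, 4 and 5 in purple. Itga11 lies at -1.23 and -0.94, while Itgb1, Ddr1 and Ddr2 move from just below 0 to just above it.

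Within the groups the alpha chains Itga1, Itga2 and Itga11 followed each other, and Itgb1 followed Ddr1 and Ddr2. With each group's mean removed, Itga11 and Itga1 had a Pearson r of 0.85 over 17 tumors (0.84 without Cryo replicates 2, 4 and 5). Itga1 and Itga2 had an r of 0.69 (0.84), and Itga2 and Itga11 0.61 (0.61). Itgb1 had 0.91 with Ddr2 (0.72) and 0.88 with Ddr1 (0.59), and Ddr1 and Ddr2 had 0.77 (0.38), so that each of these values was lower without the 3 tumors. Itga11 had 0.47 with Ddr2 (0.30), 0.26 with Itgb1 (-0.14) and 0.16 with Ddr1 (-0.32), and Itga2 had 0.67 with Ddr2 (0.22). Itga10 had r between -0.31 and 0.08 with the other members, and between -0.54 (with Itgb1) and 0.08 without the 3 tumors. These r are descriptions over tumors that share the normalization of each library.

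The genes most like Itga11 within the groups were Ednra, Abi3bp, Nid1, Mpp7 and Gm5431, with r of 0.91, 0.89, 0.88, 0.88 and 0.88 over 17 tumors among 12569 genes of at least 1 CPM. Ednra encodes an endothelin receptor of smooth muscle, Abi3bp an extracellular matrix protein, and Nid1 a link protein of the basement membrane. Itga1 ranked 15th in this list, Itga2 1404th and Itga10 7871st. The log2 fold changes of these genes between the groups were -0.39 (standard error 0.30) for Ednra, -0.89 (0.44) for Abi3bp, -0.54 (0.35) for Nid1, -0.12 (0.36) for Mpp7 and -0.56 (0.34) for Gm5431.

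The levels of Itga11 and Itga1 rose and fell with markers of vessels, leukocytes and fibrillar collagen from tumor to tumor. A score of each list, the mean log2 CPM of its genes, was set against each receptor after removal of the group means, which leaves out the contrast that chose Itga11. Of 28 relations, 7 had an adjusted p under 0.05 by within-group permutation with Benjamini-Hochberg adjustment, and all 7 were of Itga1, Itga2 or Itga11. Itga11 had r = 0.64 with the fibrillar collagen score (Spearman 0.72, permutation p = 0.0086 and 0.00199, adjusted p = 0.0377 and 0.014, n = 17). It had 0.60 in Con alone, 0.70 in Cryo alone, and 0.75 without the 2 tumors whose score lay farthest from the median.

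With the endothelium score Itga11 had r = 0.63 (Spearman 0.61, permutation p = 0.00943 and 0.0131, adjusted p = 0.0377 and 0.046) and with the leukocyte score 0.63 (Spearman 0.71, permutation p = 0.00919 and 0.002, adjusted p = 0.0377 and 0.014). Without the 2 farthest tumors these were 0.64 and 0.72. The relation to the fibroblast score was weaker, at r = 0.48 (Spearman 0.49, permutation p = 0.0661 and 0.0496, adjusted p = 0.147 and 0.139). Leaving out any 1 tumor kept r of Itga11 between 0.59 and 0.70 for fibrillar collagen, 0.54 and 0.69 for endothelium and 0.52 and 0.70 for leukocytes. The adjusted p stayed under 0.05 in only 7 of these 17 runs for each score, and without Con replicate 5 it was lost for all 28 relations.

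Over all 17 tumors Itga1 had the closest relations, with r = 0.78 to the endothelium score (Spearman 0.80, permutation p = 9.8e-04 and 7.9e-04, adjusted p = 0.0141 and 0.014) and 0.77 to the leukocyte score (Spearman 0.75, permutation p = 0.00101 and 0.00198, adjusted p = 0.0141 and 0.014). Without the 2 farthest tumors they were 0.66 and 0.69, and both calls were kept in 16 of 17 runs without 1 tumor. With the leukocyte score Itga1 had r = 0.91 in Con and 0.23 in Cryo tumors, a difference that was not tested. With fibrillar collagen Itga1 had 0.64 (Spearman 0.64, permutation p = 0.00856 and 0.00892, adjusted p = 0.0377 and 0.041), or 0.65 without the 2 farthest tumors, and this call was kept in 7 of the 17 runs. Itga2 had 0.62 with endothelium (Spearman 0.61, permutation p = 0.00424 and 0.0103, adjusted p = 0.0377 and 0.041), or 0.53 without the 2 farthest, with the call kept in 9 of the 17 runs. Con replicates 1 and 5, which had the lowest Itga1, Itga2 and Itga11 of their group, also had its lowest leukocyte scores, 4.38 and 4.48 against 4.77 to 6.34 in the other Con tumors. These replicates also had the lowest first principal component (-9.07 and -9.52) and total counts (14274769 and 14154687) of the Con tumors. Their TMM normalization factors, 0.9385 and 0.9224, were the lowest of that group as well. Which of these traits the receptor levels go with was not tested.

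Ddr1 went the other way once the 3 tumors that stood apart were left out. Over all 17 tumors its r with the fibrillar collagen score was 0.08 (Spearman 0.15, permutation p = 0.755 and 0.564, adjusted p = 0.846 and 0.705). It was -0.88 in Con alone and 0.61 in Cryo alone, and -0.85 over the 14 tumors (permutation with Benjamini-Hochberg adjustment, adjusted p = 0.0056). The 14-tumor value leaned on Con replicate 4, which had the lowest Ddr1 and the highest collagen score of the Con tumors, and it was -0.65 without it (adjusted p = 0.0443). The pooled r therefore describes neither group, and Itgb1 and Ddr2 gave no relation past the threshold over all tumors.

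**Figure D4:**
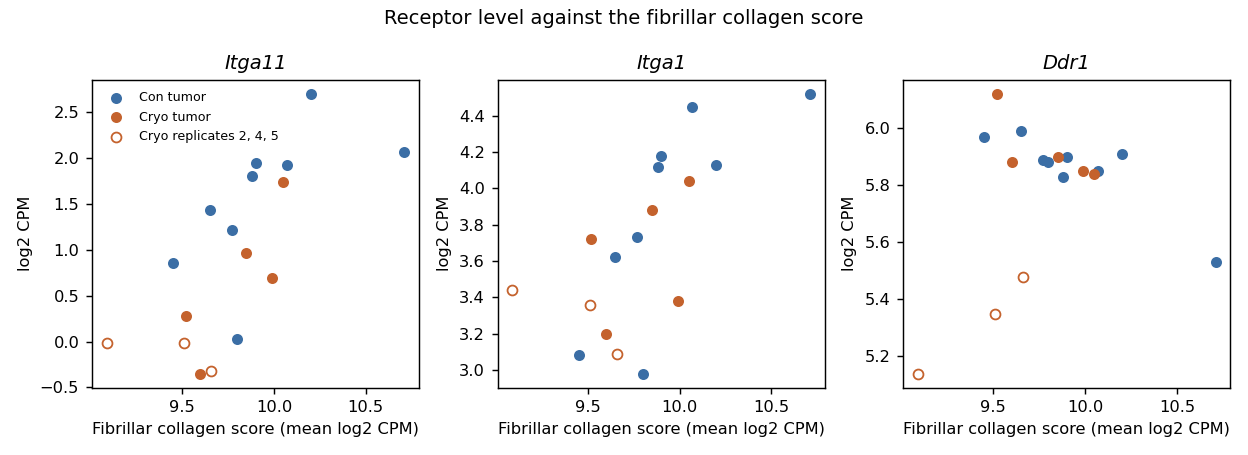
Log2 CPM of Itga11, Itga1 and Ddr1 against the fibrillar collagen score (mean log2 CPM of 5 collagen chain genes), 1 point per tumor. Itga11 and Itga1 are higher in tumors with a higher score (within-group r of 0.64 each), while Ddr1 is lower in such tumors apart from Cryo replicates 2, 4 and 5.

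The collagen chains that these receptors bind were abundant, and none passed the threshold between the groups. Of 13 tested genes of a list of 15, 11 had a log2 fold change below 0 and 0 had an unadjusted p under 0.05, and the median was -0.09. Per length the highest were Col3a1, Col6a1 and Col1a1, chains of collagens III, VI and I, with 562, 289 and 149 FPKM. Col1a1 had 1160 ± 716 CPM in Con and 776 ± 275 in Cryo, a difference of -0.58 on the log2 scale (standard error 0.30, adjusted p = 0.728 in edgeR's quasi-likelihood test), whereas Col3a1 had -0.07 (0.15) and Col6a1 -0.02 (0.17). The fibrillar collagen score was 9.94 ± 0.36 in Con and 9.66 ± 0.31 in Cryo tumors (two-sided exact permutation p = 0.110).

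No other collagen receptor and no other partner of Itgb1 passed the threshold. Of 5 other receptors 3 were tested, and Mrc2, which takes up collagen for breakdown, had 201 ± 22.7 CPM in Con and 201 ± 18.3 in Cryo. Lair1, an inhibitory receptor of leukocytes, differed by 0.00 on the log2 scale (standard error 0.16) and Adgrg1, an adhesion receptor that binds collagen III, had -0.09 (0.11), while Gp6, the platelet collagen receptor, had at most 2 counts in any tumor. Of 7 tested alpha chains among 8 that bind other ligands, 6 were below 0 and 0 had an unadjusted p under 0.05, with a median of -0.08. Itga5 had 0.05 (0.07), Itga3 -0.02 (0.10) and Itgav -0.04 (0.18).

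The genes of proteins that link integrins to actin did not pass the threshold either. Of 14 tested genes among 16, 9 were below 0 and 5 above it, 0 had an unadjusted p under 0.05, and the median was -0.03. The most abundant were Tln1, which switches integrins on, with 45.1 FPKM and a log2 difference of -0.18 (standard error 0.14), Bcar1, a scaffold of adhesion signaling, with -0.04 (0.12), and Zyx with 0.04 (0.14). Ilk, a gene of nearly all cells that was singled out after its values were seen, had at most 3 counts in any tumor and overlaps Rrp8 and Taf10, so a low count here need not be a low level. Among the receptors, Itga1 overlaps Pelo and Gm49395, which had 1 to 12 and 0 to 13 counts, and Itga10 overlaps Gm42957 with 0 to 5.

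Markers of other cells that the tumors could hold were counted beside Itga11. Of 10 fibroblast markers 7 were below 0, none had an unadjusted p under 0.05, and their summed level was 1450 to 2240 CPM in Con and 1460 to 2270 in Cryo. Dcn, Pdpn and Postn, which had the highest levels per length, had log2 fold changes of 0.05 (standard error 0.17), -0.07 (0.10) and -0.33 (0.16). In a fit with the fibroblast score as a covariate the log2 fold change of Itga11 was -1.06 (0.33), given as a value with no test. That score itself differed by only -0.07 between the groups. The endothelium, leukocyte and fibrillar collagen scores, which were more closely related to Itga11, were not fitted as covariates.

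Of 7 pericyte and smooth muscle markers 5 were below 0, with a median of -0.10 and a summed level of 346 to 500 CPM in Con and 369 to 478 in Cryo. Both markers with an unadjusted p under 0.05 were lower in Cryo, against 1.17% of all genes in that direction, and neither passed the adjusted threshold. Rgs5, a pericyte gene, had 39.0 ± 9.50 and 27.4 ± 7.61 CPM, a log2 difference of -0.51 (standard error 0.18), and Notch3, a receptor of mural cells, had 7.92 ± 2.78 and 4.94 ± 2.52, a log2 difference of -0.67 (0.30), each with an adjusted p of 0.728 by edgeR. Both were below the Con median in 8 of 8 Cryo tumors, while Pdgfrb, Acta2 and Cspg4, the most abundant of the list, had -0.05 (0.13), -0.10 (0.25) and 0.18 (0.11). Cspg4 was above the Con median in 8 of 8 Cryo tumors.

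Of 7 endothelial markers 5 were below 0 and none had an unadjusted p under 0.05, with a summed level of 90.8 to 195 CPM in Con and 91.9 to 149 in Cryo. Pecam1, Cdh5 and Cldn5 had log2 fold changes of -0.27 (standard error 0.18), -0.26 (0.21) and 0.67 (0.34). All 7 leukocyte markers were below 0, as were 52.0% of all genes, with a median of -0.31. Their summed level was 327 to 997 CPM in Con and 272 to 506 in Cryo. The leukocyte score was 5.14 ± 0.6 in Con and 4.87 ± 0.31 in Cryo (two-sided exact permutation p = 0.277), with Con replicate 4 the highest at 6.34. Of these markers Adgre1, a macrophage marker, had an unadjusted p under 0.05, against 1.17% of all genes in that direction. Adgre1 had 79.3 ± 60.6 and 49.1 ± 10.3 CPM and a log2 difference of -0.69 (0.29, edgeR adjusted p = 0.728), while Cd68 and Csf1r had -0.02 (0.23) and -0.21 (0.19). The part of these cells in the lower Itga11 was not tested.

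Of the epidermal markers 3 of 5 were tested and all 3 were above 0, with a summed level of 182 to 444 CPM in Con and 205 to 664 in Cryo. Krt10, a keratin of upper skin layers, had 2.50 ± 0.597 and 4.18 ± 2.06 CPM, a log2 difference of 0.73 (standard error 0.26, edgeR adjusted p = 0.728, against 3.74% of all genes at an unadjusted p under 0.05 in that direction), and Krt14 and Krt5 had 0.18 (0.25) and 0.76 (0.89). Of 5 tested colon epithelial markers 4 were above 0 and none had an unadjusted p under 0.05, with a summed level of 16.5 to 96.4 CPM in Con and 10.4 to 214 in Cryo, and Krt19, Krt18 and Krt8 had 1.85 (0.92), 2.01 (1.05) and 1.65 (1.04). Of 3 tested skeletal muscle markers 2 were below 0, Acta1 with -0.45 (1.22) and Tnnt3 with -0.05 (0.56), and Mylpf had 0.06 (0.55), with a summed level of 2.38 to 127 CPM in Con and 3.13 to 51.6 in Cryo.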

How the data were processed

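Bulk RNA sequencing of 9 Con and 8 Cryo distant MC38 tumors was analysed, grouped by the deposited labels. The authors deposited counts of reads per gene, not normalized, and FPKM, which are the counts per gene length and library total (largest relative deviation 3.89e-14). The length column, a score in bases and not an expression value, was used as the authors deposited it. Per the labels the processing notes name GRCm38 and mm10. The aligner, the counting program and the strand setting are not given in the sources used here, and the table's positions differ from GENCODE M21 of GRCm38, so no build is named for them.

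Counts were tested with edgeR 4.0.16 in R 4.3.3 (TMM, filterByExpr, quasi-likelihood F test, group as the only term), with Benjamini-Hochberg adjustment over 13005 genes. All 7 members passed the filter. Standard errors were derived from F, and the 95% intervals are normal intervals built on them. CPM and the FPKM of the text were scaled by TMM, and log2 CPM used a prior count of 2. The exact permutation test covered all splits of 17 tumors into 9 and 8 (two-sided, smallest p 4.11e-05), and relations used 100000 permutations within groups (SciPy 1.17.1). Alternatives used DESeq2 1.42.0 and limma 3.58.1. Scripts were tested on simulated data.

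The members and gene lists were chosen with earlier results of these data known. Besides the members, the genes named from a list were those with an unadjusted p under 0.05 and the 3 with the highest FPKM, and the 5 genes most like Itga11. Exceptions are the colon markers Cdx2, Vil1, Epcam and Cdh1, Gp6, Ilk, the genes that overlap members, and the neighbors of Itga11 in the order of p. Promoter sequences were taken from RefSeq.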

Additional observations from a re-analysis of the deposited data

Results flagged for a closer look

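Among 22 groups of values checked for a tumor far from the rest, 2 had one, and chance alone marks about 1 in 20 groups. Itga2 in Cryo replicate 5, with 0 counts, had a log2 CPM of -2.98, where the next Cryo tumor had -0.64 and the gap was 0.545 of the range of the group. Ddr1 in Con replicate 4 had a log2 CPM of 5.53, the lowest of the Con tumors, where the next had 5.83 and the gap was 0.647 of the range.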

How the results depend on the processing

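The log2 fold change of Itga11 stayed below 0 in all 27 alternatives, between -1.56 and -0.94, and it was -1.31 with a replicate block. These refits use the tumors and the contrast that chose Itga11, so its sign there is no separate support. Without Cryo replicates 2, 4 and 5 the log2 fold changes of Itgb1, Ddr1 and Ddr2 turned to 0.02, 0.05 and 0.14 and their log2 CPM differences to 0.03, 0.06 and 0.14, and limma voom gave 0.02 for Itga10. The count of 64 called genes (46 higher, 18 lower) became 432 with no filter on low counts, 39 with an offset for gene length (17 and 22) and 33 with the replicate block (13 and 20), and ranged from 34 without Cryo replicate 5 to 165 without Cryo replicate 3. The split was 10 higher and 69 lower under limma voom, 36 and 21 under upper quartile normalization, 65 and 3 with the fibroblast score as a covariate, and 7 and 50 without Cryo replicates 2, 4 and 5. Whether the same replicate numbers pair the tumors was not tested. The correlation of deviations between same-numbered tumors ran from -0.51 to 0.642, and 2 of 8 numbers matched best with themselves. The block moved no member past the adjusted threshold.

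None of the 6 other members differed by permutation, and leaving out 1 tumor gave 0 to 1, namely Itga1 with -0.46 without Con replicate 1 (exact p = 0.0437) and Itgb1 with -0.20 without Cryo replicate 7 (exact p = 0.0441). In CPM without division by length Itga10 lay below Itga1, by -0.72. The 7 relations became 14 without Cryo replicates 2, 4 and 5. Leaving out 1 tumor, an alternative chosen after seeing the data, gave 0 (without Con replicate 5) to 10 (without Cryo replicate 4). Without the 3 tumors r turned sign, to -0.57 for Itgb1 with fibrillar collagen, -0.85 and -0.15 for Ddr1 and Ddr2 with it, 0.07 for Itga10 and -0.05 for Ddr2 with endothelium, and 0.02 for Ddr2 with leukocytes. With upper quartile normalization r was 0.04 for Itga10 with endothelium and 0.03 for Ddr2 with leukocytes. The cause of these changes was not tested. At 7 to 116 counts per tumor, counting error alone gives Itga11 a coefficient of variation of 13.5% in Con and 21.7% in Cryo tumors, against 0.812% and 0.888% for Itgb1.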

Other observations

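Without Cryo replicates 2, 4 and 5, Ddr1 had an r of -0.82 with the leukocyte score, -0.70 with the fibroblast score and -0.62 with the endothelium score over 14 tumors (within-group permutation, Benjamini-Hochberg adjusted p = 0.00868, 0.0218 and 0.0301). Without Con replicate 4 as well these were -0.60, -0.51 and -0.49, with adjusted p of 0.0647, 0.0647 and 0.139. Itgb1 had -0.56 with the fibroblast score over the 14 tumors (adjusted p = 0.0403), and its adjusted p stayed under 0.05 in 4 of 14 runs without 1 further tumor. Itga2 had 0.80 with the leukocyte score and 0.81 with the fibrillar collagen score (adjusted p = 0.00974 and 0.00868), where over all 17 tumors it had 0.38 and 0.54, and without Con replicate 4 as well both were 0.68 (adjusted p = 0.0647 and 0.0615).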
